A study of Mus musculus with 3 samples.

Results

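The 9 genes described here encode ligands and receptors of the gp130 cytokine family, and their expression was measured in mouse cells labelled as embryonic stem cells (mESCs) of 3 genotypes. They were chosen by name, as Lif, Clcf1, Il6 and Il11 among the ligands and Lifr, Il6st, Osmr, Il6ra and Il11ra1 among the receptors, and every non-control probe whose accession is a transcript of one of them was read. All 9 were on the array, with 11 probes among them, of 20659 named genes and 39429 probes in all. The groups were mESCs labelled LIFR KO, for the LIF receptor encoded by Lifr, mESCs labelled gp130 KO, for the shared receptor subunit encoded by Il6st, and wildtype mESCs, each grown under what the labels call standard conditions. The sources used here do not give the strain, how the knockouts were made or how many clones were used. Each genotype had 1 single-colour Agilent array, which leaves no replicate cultures, so no test was run and every ratio sets 1 array against 1 other.

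Most cytokines of this family act through gp130, which has no enzyme activity of its own. It passes the signal to bound JAK kinases, which then phosphorylate STAT3. LIF joins LIFR with gp130, whereas IL-6 and IL-11 first bind their own receptors, encoded by Il6ra and Il11ra1, which then recruit gp130. CLCF1 signals through the CNTF receptor together with LIFR and gp130, and OSMR is the partner of gp130 for oncostatin M. Mouse embryonic stem cells are commonly kept undifferentiated by adding LIF to the medium.

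By the scanner software's flags, 22974 probes of the LIFR KO array, 25816 of the gp130 KO array and 25371 of the wildtype array exceeded background clearly, here called well above background. Local background, the brightness around a spot, was raised over 2 times the array's median at 252 spots of the LIFR KO array, 7 of the gp130 KO array and 2 of the wildtype array, and reached 25884 on the LIFR KO array. None of the 11 probes lay there, since their local background was between 19 and 28.5 on every array. Of 15 marker genes of pluripotent stem cells, 10 passed that flag on every array, and Sox2, Zfp42, Dppa3 and Fgf4 passed it on none. Of 3 probes of Dppa4, the one with the highest mean passed it on no array and another on the LIFR KO array only, at 22.0. Pou5f1, which encodes Oct4, had a signal of 22.7 on the LIFR KO, 20.3 on the gp130 KO and 31.2 on the wildtype array, close to the background. The brightest of the 15 were Klf2, at 988, 465 and 743 on the same arrays, and Klf4, at 845, 632 and 673. Lin28a had 536, 821 and 727, and Nanog 217, 329 and 316. All 13 epithelial markers were well above background on all 3 arrays. The brightest were Krt18, at 50636, 41452 and 39533 on the same arrays, and Cldn3, at 12722, 11980 and 12889. Ovol1 was the dimmest, at 128, 66.4 and 106. The labelled cell type is therefore borne out by its markers only in part, with Sox2 undetected and Pou5f1 near background on the wildtype array too.

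Lifr, the targeted gene of the LIFR KO cells, had 3 probes. The one well above background gave a processed signal, the background-subtracted brightness of the spot, of 29.97 ± 4.62 on the LIFR KO array, 34.7 ± 3.99 on the gp130 KO array and 34.9 ± 4.13 on the wildtype array, where ± is the scanner software's error of that spot. The error bars of the arrays overlapped, and after scaling each array to its 75th percentile the 95% intervals of its log2 ratios from that error included 0 in every comparison. The other Lifr probes, at 2.05 to 4.27, passed the background flag on none of the arrays. Il6st, the gene of gp130 itself, gave 299 ± 30.0 on the gp130 KO array, 369 ± 37.2 on the LIFR KO array and 329 ± 33.0 on the wildtype array. Its gp130 KO over wildtype log2 ratio was -0.11 with an interval of -0.51 to 0.29. Neither targeted gene was therefore distinguishable by these probes on the array labelled as its knockout. If a knockout is a deletion, a probe outside it would not see it. The kind of change made and the probes' positions against it are unknown here. The genotypes are therefore used as labelled, without a check from these genes.

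Upstream sequence is shown for Lif and Il6, the ligand genes that were lower in both knockouts by at least 2-fold, and for Il11, a ligand gene that was not. RefSeq promoters of build GRCm38.p6 were at hand for 8 of the 9 genes. Each line gives the 250 bases before an annotated transcript start, 5′ to 3′ on the gene's strand, and capitals mark matches to the AP-1 motif TGANTCA or to the NF-kB decamer, searched on both strands.
Lif, chr11:4257318-4257567, plus strand: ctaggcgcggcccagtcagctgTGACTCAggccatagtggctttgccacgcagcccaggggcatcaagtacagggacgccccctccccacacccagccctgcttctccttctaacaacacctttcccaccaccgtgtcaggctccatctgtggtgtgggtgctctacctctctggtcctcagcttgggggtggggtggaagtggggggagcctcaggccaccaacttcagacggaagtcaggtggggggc
Il6, chr5:30012864-30013113, plus strand: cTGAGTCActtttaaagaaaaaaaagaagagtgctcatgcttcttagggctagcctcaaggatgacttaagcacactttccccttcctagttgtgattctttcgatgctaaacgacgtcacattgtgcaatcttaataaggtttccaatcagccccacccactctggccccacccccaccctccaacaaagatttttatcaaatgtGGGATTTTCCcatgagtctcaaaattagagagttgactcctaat
Il11, chr7:4778142-4778391, minus strand: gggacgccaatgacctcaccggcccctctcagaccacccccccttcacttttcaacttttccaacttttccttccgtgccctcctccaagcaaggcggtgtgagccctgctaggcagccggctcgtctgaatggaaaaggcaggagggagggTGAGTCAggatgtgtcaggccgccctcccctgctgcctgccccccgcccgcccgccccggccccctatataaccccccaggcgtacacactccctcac
The Lif window held 1 AP-1 match, TGACTCA at -228 to -222 from the start. The Il6 window held an AP-1 match, TGAGTCA at -249 to -243, and an NF-kB match, GGGATTTTCC at -44 to -35. The Il11 window held TGAGTCA at -98 to -92, so an AP-1 match was not particular to the ligand genes that were lower. The windows of Lifr, Il6st, Osmr, Il6ra, Il11ra1 and the other annotated start of Il11 held no match to these motifs. The STAT motif TTCNNNGAA matched in no window of these genes. Among all 32851 promoter windows of the same length, 6.75% held an AP-1 match, 3.90% an NF-kB match and 7.02% a STAT match. A match is a run of letters and shows no binding.

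Lif, the gene of the ligand that gives LIFR its name, was lower on both knockout arrays. Its probe had a processed signal of 116 ± 12.2 on the LIFR KO array, 208 ± 20.9 on the gp130 KO array and 688 ± 68.9 on the wildtype array. The wildtype array was the high one, and the 2 knockout arrays lay well below it. After scaling, Lif was 6.70-fold lower on the LIFR KO array, a log2 ratio of -2.74 with a 95% interval from the scanner error of -3.15 to -2.33. It was 3.25-fold lower on the gp130 KO array, with a log2 ratio of -1.70 and an interval of -2.10 to -1.30. These intervals cover the reading of 1 spot and not the spread between cultures. Among all genes compared, Lif ranked 5 from the lowest of 14551 in the LIFR KO over wildtype ratio and 32 from the lowest of 14903 in the gp130 KO over wildtype ratio.

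Clcf1, the gene of a ligand that acts through the CNTF receptor, followed the same order of arrays as Lif. Its signal was 70.1 ± 7.89 on the LIFR KO array, 115 ± 11.7 on the gp130 KO array and 185 ± 18.7 on the wildtype array. It was 2.98-fold lower on the LIFR KO array, with a log2 ratio of -1.58 and an interval of -2.00 to -1.15. On the gp130 KO array it stayed under the 2-fold line, at a log2 ratio of -0.66 with an interval of -1.06 to -0.25, which lies below 0.

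Il6, the gene of interleukin 6, was detected on the wildtype array only, and dimly. Its signal was 3.64 ± 3.62 on the LIFR KO array and 5.24 ± 2.09 on the gp130 KO array, both not well above background, against 36.4 ± 4.30 on the wildtype array. With the lowest signal well above background as a floor, 16.7 on the LIFR KO and 9.66 on the gp130 KO array, Il6 was at least 2.46-fold lower on the LIFR KO array and lower by at least 3.70-fold on the gp130 KO array. The bounds rest on floors that differ between the arrays and give no order between the knockouts. Under normexp background correction both Il6 bounds fell under 2-fold, and that for the LIFR KO array was lost when all spots entered it, as was the lower value of Clcf1 there. Il11, the gene of interleukin 11, was similar on the 3 arrays, at 524 ± 52.6, 493 ± 49.4 and 442 ± 44.3 on the LIFR KO, gp130 KO and wildtype arrays. Its log2 ratios were 0.07 for LIFR KO over wildtype, with an interval of -0.33 to 0.47, and 0.19 for gp130 KO over wildtype, with an interval of -0.22 to 0.59.

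**Figure D1:**
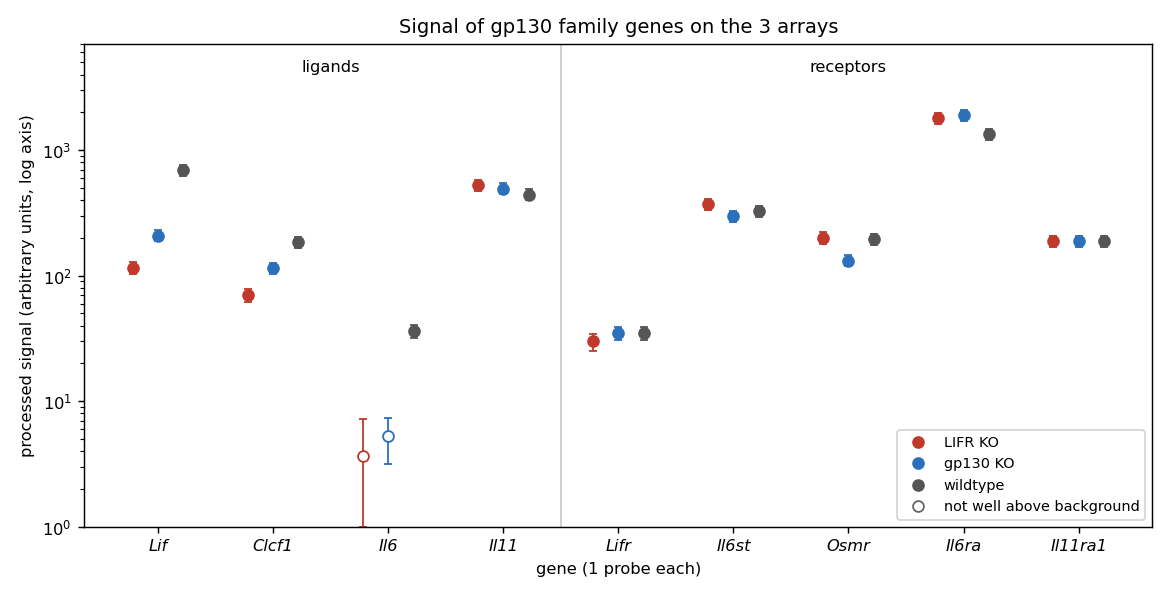
Processed signal of the 9 genes on a log axis, 1 point per array, with the LIFR KO array left of the gp130 KO array and the wildtype array on the right, bars for the scanner error (cut at the lower edge for Il6) and open points where a probe was not well above background. Lif and Clcf1 stand lowest on the LIFR KO array and highest on the wildtype array, and Il11 and Il11ra1 lie close together on all 3.

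The remaining receptor genes stayed within 2-fold on both knockout arrays. Osmr, the gene of the oncostatin M receptor, was lower on the gp130 KO array than on the others. It had 201 ± 20.5 on the LIFR KO array, 132 ± 13.4 on the gp130 KO array and 196 ± 19.7 on the wildtype array. The log2 ratio was -0.14 for LIFR KO over wildtype, with an interval of -0.54 to 0.27, and -0.54 for gp130 KO over wildtype, with an interval of -0.95 to -0.14 that lies below 0. Il6ra, whose product binds IL-6 before gp130, was higher on both knockout arrays, at 1788 ± 179 on the LIFR KO, 1891 ± 189 on the gp130 KO and 1331 ± 133 on the wildtype array. Its log2 ratio was 0.25 for LIFR KO over wildtype, with an interval of -0.15 to 0.65 that includes 0, and 0.53 for gp130 KO over wildtype, with an interval of 0.13 to 0.93. Il11ra1, the gene of the IL-11 receptor, had 188 ± 19.1, 189 ± 19.0 and 189 ± 19.1 on the LIFR KO, gp130 KO and wildtype arrays, the closest agreement of raw signals among the 9 genes. After scaling, its log2 ratio was -0.19 for LIFR KO and 0.02 for gp130 KO over wildtype, with intervals that include 0. The scaled values of Il6st and Il11 lay closer together across the arrays. A near-identical mouse paralog, Il11ra2, had no probe of its own accession, so the Il11ra1 signal may include it.

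Counted at 2-fold, 3 of the 9 genes were lower and none higher on the LIFR KO array, against 1.62% of 14551 genes compared that were lower and 2.62% that were higher. On the gp130 KO array 2 of the 9 were lower and none higher, against 0.785% lower and 0.98% higher of 14903. Il6 is in both counts but entered the comparison only through the wildtype array, where it was high, so it could only come out lower. With both arrays required to be well above background, the counts were 2, Lif and Clcf1, on the LIFR KO array and 1, Lif, on the gp130 KO array. None of the 5 receptor genes passed 2-fold on either array. The median log2 ratio of the receptor genes was -0.14 for LIFR KO and 0.02 for gp130 KO over wildtype, and that of all genes compared -0.03 and 0.03. Both comparisons use the same wildtype array, and are not independent of each other. The difference between ligand and receptor genes was not tested.

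Between the knockouts, Lif was the 1 gene of the 9 past 2-fold. It was 2.06-fold higher on the gp130 KO array than on the LIFR KO array, a log2 ratio of 1.05 with an interval of 0.63 to 1.46, where 1.29% of the 14765 genes passed 2-fold upwards and 2.05% downwards. This value sits at the 2-fold line and fell below it under 5 of 11 alternative settings. Clcf1 was 1.89-fold higher, with a log2 ratio of 0.92 and an interval of 0.49 to 1.35. Il6 was not compared, since neither knockout array was well above background. The intervals of the other 6 genes included 0, with Osmr at -0.40 and an interval of -0.81 to 0.00396.

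**Figure D2:**
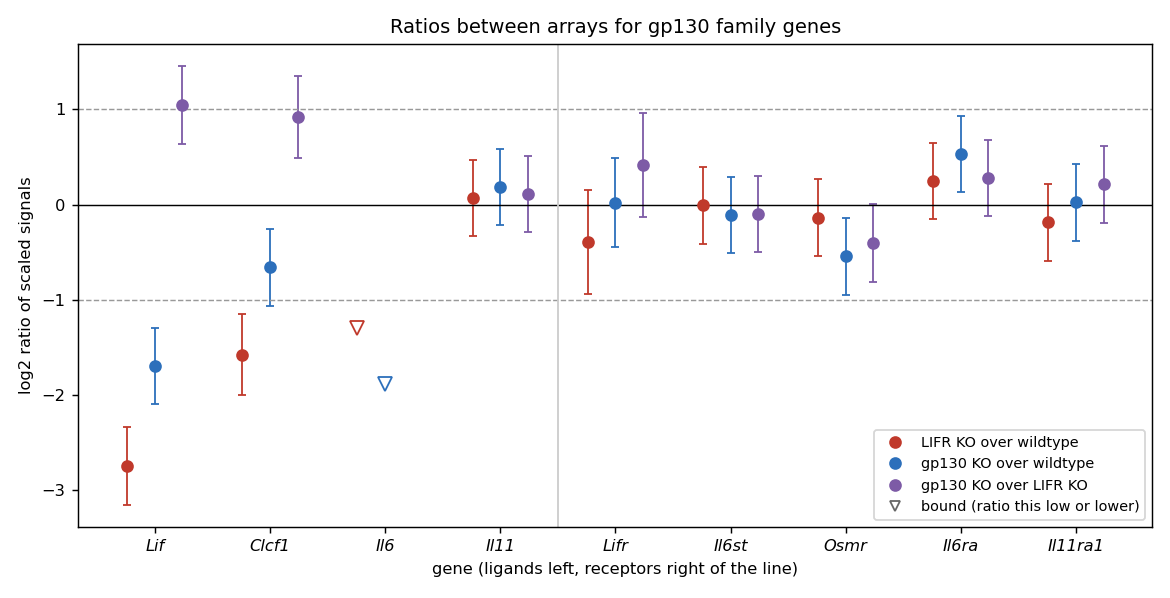
Log2 ratio of scaled signals for each gene and comparison, with 95% intervals from the scanner error of the spots, open triangles for bounds and dashed lines at 2-fold. Lif, Clcf1 and Il6 lie below 0 in both knockouts, and the intervals of Il11, Lifr, Il6st and Il11ra1 include 0 in every comparison.

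Which genes had a pattern most like that of Lif and Clcf1 was asked over the pair of log2 ratios to wildtype, as a distance between points from 3 arrays, among 13025 genes well above background on all arrays and outside raised local background. The 5 genes nearest to Lif were Ccl2, Ccl7, Egr1, Cxcl5 and Cxcl3, at distances of 0.161 to 0.807 on the log2 scale. Of these, 4 encode chemokines and Egr1 encodes a growth factor-induced transcription factor. Ccl2, the nearest, had 955 on the LIFR KO array, 1516 on the gp130 KO array and 5074 on the wildtype array, which is 5.997-fold and 3.28-fold lower in the knockouts. Clcf1 had as its nearest genes Cxcr3, a chemokine receptor gene, Ifi27l2b and the histone genes H2bc14, H2bc1 and H1f5, at distances of 0.124 to 0.195. Cxcr3 had 120 on the LIFR KO, 175 on the gp130 KO and 294 on the wildtype array. With 1 array per genotype, likeness here says only that the same array was low or high.

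Of 12 other genes of the family, 11 were on the array. Of these, 8 could be compared for LIFR KO over wildtype and 9 in each of the other comparisons. None of those passed 2-fold, read from the brightest probe of each. Among all genes compared, between 0.785% and 2.62% passed 2-fold in each direction of each comparison. Osm, the gene of oncostatin M, lies next to Lif on chromosome 11. It had 31.6 ± 4.15 on the gp130 KO and 35.4 ± 4.62 on the wildtype array, a log2 ratio of -0.14. On the LIFR KO array its signal of 22.9 ± 5.23 was not well above background, which gives at least 1.75-fold lower than wildtype. Il31ra, the IL-31 receptor gene and the neighbour of Il6st on chromosome 13, had 91.2, 61.2 and 84.3 on the LIFR KO, gp130 KO and wildtype arrays. Its gp130 KO over wildtype log2 ratio was -0.43, with an interval of -0.85 to -0.02. Lifr and Osmr are neighbours as well, on chromosome 15, and their values are given above.

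The remaining ligand genes of the family stayed within 2-fold. Ctf1, the gene of cardiotrophin 1, was read from 10 spots and had 307 ± 9.78 on the LIFR KO, 345 ± 10.9 on the gp130 KO and 306 ± 9.71 on the wildtype array. Its log2 ratios were -0.17 for LIFR KO over wildtype, with an interval of -0.30 to -0.04, and 0.20 for gp130 KO over wildtype, with an interval of 0.07 to 0.32. Between the knockouts, Ctf1 was higher on the gp130 KO array by a log2 ratio of 0.37, with an interval of 0.24 to 0.50, so all 3 intervals exclude 0. Ctf2, Cntf and Il27 had log2 ratios of -0.34, 0.30 and -0.31 for LIFR KO over wildtype and -0.28, 0.25 and -0.10 for gp130 KO over wildtype, all with intervals that include 0. A dimmer Cntf probe gave -0.16 and -0.03, also with intervals that include 0. Cntfr, the gene of the CNTF receptor, had 187, 133 and 167 on the LIFR KO, gp130 KO and wildtype arrays. Its log2 ratios were -0.01 for LIFR KO over wildtype and -0.30 for gp130 KO over wildtype, with intervals that include 0, and its spot lay in raised local background on the LIFR KO array. Ebi3 had 20.8, 14.2 and 13.8 on the LIFR KO, gp130 KO and wildtype arrays and was well above background on the gp130 KO array alone, and Il27ra and Il31 on none.

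Downstream of the receptors, no gene of a list of 32 genes for JAKs, STATs, SOCS proteins other than Socs3, PIAS proteins, phosphatases and adaptors passed 2-fold among 28 compared, on either knockout array, read from the brightest probe of each. A dimmer probe of Ptpn2, a phosphatase gene, did, at 31.7 on the LIFR KO, 35.3 on the gp130 KO and 66.4 on the wildtype array. Its log2 ratio was -1.24 for LIFR KO over wildtype, with an interval of -1.78 to -0.71, while another probe of the gene gave -0.15. Target genes of LIF and STAT3 went in both directions on the LIFR KO array. Of 21 compared, 4 were higher, namely Fos, Pim1, Socs3 and Junb, with log2 ratios of 2.10, 1.73, 1.37 and 1.29, and 3 were lower, namely Cebpd, Myc and Ier3, at -2.01, -1.82 and -1.47. A dimmer probe of Fgl1 gave a bound past 2-fold as well, at least 1.08 higher on the log2 scale. On the gp130 KO array, of 23 compared, Cebpd and Cish were lower, at -1.06 and -1.03, and none was higher. Beside the counts of both lists, 2.62% of all genes compared were higher and 1.62% lower by 2-fold on the LIFR KO array. On the gp130 KO array these shares were 0.98% and 0.785%. The medians of the target list were -0.01 for LIFR KO and -0.28 for gp130 KO over wildtype, beside -0.03 and 0.03 for all genes.

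**Figure D3:**
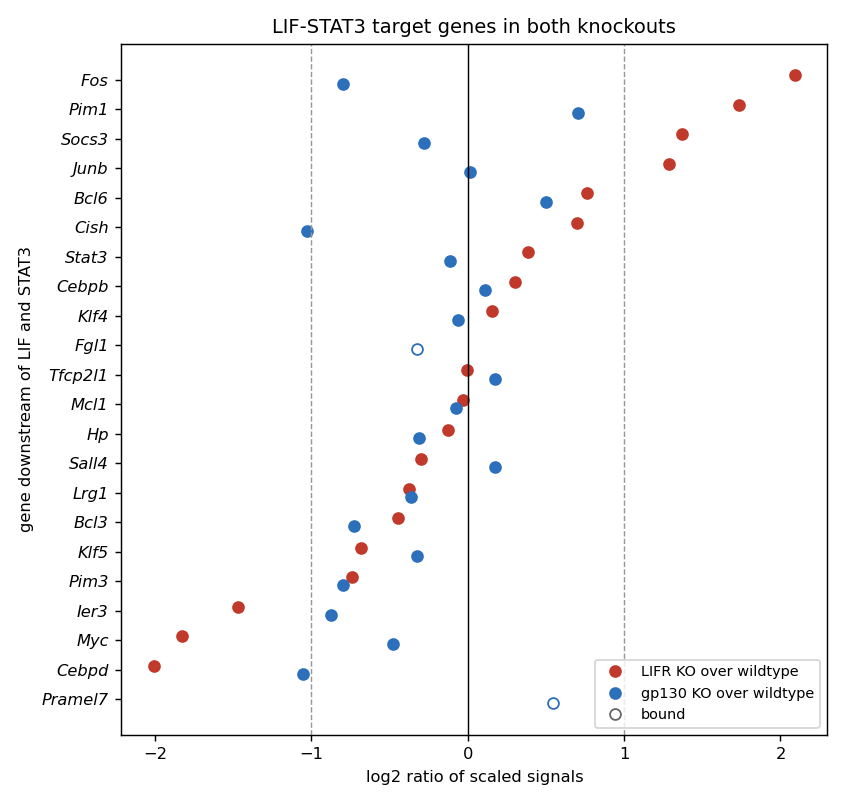
Log2 ratios over wildtype of target genes of LIF and STAT3, with LIFR KO in red above gp130 KO in blue in each row, open points for bounds and dashed lines at 2-fold. Fos, Pim1, Socs3 and Junb lie past 2-fold on the right for LIFR KO, whereas for gp130 KO no point does.

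Levels of other cell types' markers stood beside these values as follows. The 8 arrayed leukocyte markers summed to 2.63, 3.40 and 3.78 times the 75th percentile of the LIFR KO, gp130 KO and wildtype arrays. This was the same order as Lif, and so was that of the endothelial sums below. Pluripotent stem cell markers, at 4.91, 4.97 and 5.17, had it too. Epithelial markers, at 131, 129 and 124, had the reverse order, and fibroblast and feeder markers had neither. The pluripotent and epithelial sums differed far less between arrays than Lif did. On the same scale Klf2 and Klf4, the brightest pluripotent markers, were lowest on the gp130 KO array, whereas Lin28a and Nanog were lowest on the LIFR KO array. All 7 leukocyte markers compared were lower on the LIFR KO array, none by 2-fold, with a median log2 ratio of -0.39. On the gp130 KO array 6 of the 7 were lower, with a median of -0.22. Among all genes compared, 7913 of 14551 were lower on the LIFR KO array, with a median of -0.03. On the gp130 KO array 6730 of 14903 were, with a median of 0.03. The brightest leukocyte markers were Itgam at 888, 919 and 937 and Cd3e at 458, 549 and 724. Of the 8, 7 were well above background on all 3 arrays. The defining leukocyte gene Ptprc was dim at 19.5, 19.1 and 22.7 and Lyz2 was at background on all 3. Fibroblast and feeder markers summed to 118, 129 and 111, almost wholly from Vim at 87779, 83486 and 73043, and Lum, Pdgfrb and Fbn1 were at background on all 3. Pdgfra, read from 10 spots, had 313, 335 and 230, and Postn had 249, 210 and 234, both well above background on all 3. Pdgfra was higher on the LIFR KO and gp130 KO arrays by log2 ratios of 0.27 and 0.57, with intervals of 0.14 to 0.39 and 0.44 to 0.69. The intervals of Postn included 0. Within that list, Col1a1 had 257, 92.9 and 70.4 and was higher on the LIFR KO array by a log2 ratio of 1.69, with an interval of 1.28 to 2.11. Dcn, at 33.6 on the gp130 KO and 16.5 on the wildtype array, was higher by a log2 ratio of 1.05. Of the 13 epithelial markers, Cldn4 passed 2-fold, at a log2 ratio of 1.14 on the LIFR KO array. Endothelial markers summed to 1.54, 1.90 and 2.04, with Cdh5, Tek and Emcn not well above background. Kdr, at 934, 967 and 1080, and Pecam1, at 209, 260 and 262, were well above background on all 3 arrays. Another Kdr probe, read from 10 spots, was so on none. The part of these cell types in the Lif, Clcf1 and Il6 values was not tested, and fewer cells of a type and less RNA per cell cannot be told apart in such samples.

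**Figure D4:**
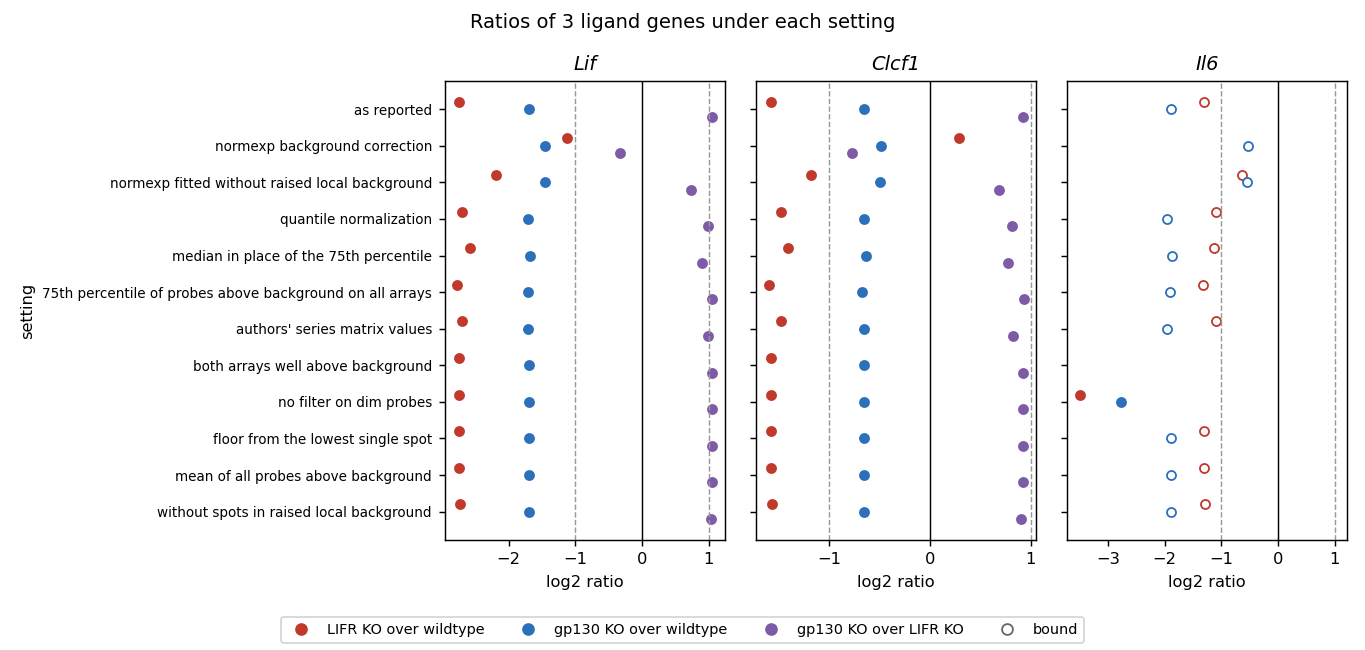
Log2 ratios of Lif, Clcf1 and Il6 as reported and under 11 other settings of background correction, scaling, filter, floor and probe choice, with open points for bounds. The LIFR KO and gp130 KO ratios of Lif to wildtype stay past 2-fold under all settings, while normexp on all spots turns Clcf1 to 0.29 for LIFR KO over wildtype and Lif to -0.33 for gp130 KO over LIFR KO.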

How the data were processed

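Gene expression was measured in 3 cell samples, 1 per genotype, on single-colour Agilent arrays of design 026655, built on mm9 per the file headers. The deposited intensity is the processed signal that Feature Extraction 11.0.1.1 wrote with protocol GE1_1100_Jul11, per the file headers, background-subtracted and not normalised between arrays, with its error. The submitters' processing notes name Feature Extraction 9.1. Deposited flags of 0 or 1, the other kind of value used, mark spots well above background, saturated spots (none here) and outliers, per the file headers. The authors' log2 values in the series matrix had an equal median of 5.38 on all arrays and, across probes, r = 0.999, 0.995 and 0.996 with the same arrays' scaled log2 signals, and how the authors made them is not given in the sources used here. All arrays shared 1 scan in the headers.

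Outlier spots, 222, 138 and 97 on the LIFR KO, gp130 KO and wildtype arrays, were left out. Spots of a probe were averaged as log2 processed signal, each array was scaled to its 75th percentile (750, 652 and 664), and a probe was well above background when more than 50% of its spots were flagged so. Accessions without versions named 27234 probes through the RefSeq table of GRCm38.p6, and a gene was read from its probe with the highest mean. Genes well above background on at least 1 array of a pair were compared. Where the other array was dim, the ratio is a bound against the higher of the dim value and the array's lowest probe signal well above background, 16.7, 9.66 and 10.5, and is 0 where the bright value did not exceed it.

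Each of the 9 genes was read from 1 spot per array. A ratio's interval is 1.96 times the combined scanner error, and the median scatter of repeated spots gives a narrower 95% half-width of 0.141 to 0.148 on the log2 scale. No test was run. The steps were tested on simulated data. The genes, lists and motifs were chosen with earlier results of these data known. Named are the 9 genes, other family genes above background, targets past 2-fold, the nearest 5 genes and the markers quoted. The values of 1 other family gene are not reported here. Normexp used limma 3.58.1 in R 4.3.3, and the rest Python 3.11.15 with pandas 2.3.3.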

Additional observations from a re-analysis of the deposited data

How the results depend on the processing

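The counts and log2 ratios of the 9 genes, and counts over all genes, were recomputed under 11 alternatives chosen together with the main settings. List counts were too, a choice made after seeing the data, but not nearest genes, list medians or levels. On the LIFR KO array, normexp on all spots gave 5 JAK-STAT genes higher and 1 lower, 2 other family genes higher, and 6 targets higher and 4 lower. For gp130 KO over wildtype, both normexp settings left 1 target lower, Cebpd. No paired analysis was possible because each genotype had 1 array. Of 66 counts of the 9 genes past 2-fold, 55 stayed within 1.5 times. Many of these were 0 and stayed 0, and 3 becoming 2 was taken as within 1.5 times. Of the log2 ratios of the 9 genes, 226 stayed within the half-width of repeated spots, 56 moved further and 2 that were past 2-fold changed sign. Normexp background correction on all spots gave 1 gene lower in place of 3 and 1 higher in place of 0 (Lifr) for LIFR KO over wildtype, 1 lower in place of 2 for gp130 KO over wildtype, and 1 lower in place of 0 and 0 higher in place of 1 for gp130 KO over LIFR KO. It turned the LIFR KO over wildtype ratio of Clcf1 to 0.29 and the gp130 KO over LIFR KO ratios of Lif and Clcf1 to -0.33 and -0.77, and left no bound for Il6 on the LIFR KO array. Fitted without raised local background, normexp gave 1 lower for gp130 KO over wildtype, with the Il6 bounds at -0.63 for LIFR KO and -0.54 for gp130 KO, and Lif and Clcf1 at -2.19 and -1.18 for LIFR KO over wildtype. Requiring both arrays above background also left 1 lower for gp130 KO, since Il6 drops out. Between the knockouts, the count of 1 higher became 0 under both normexp settings, quantile normalisation, median scaling and the authors' values, with Lif between -0.33 and 0.99.

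Over all settings, Lif was between -2.77 and -1.12 for LIFR KO and between -1.71 and -1.45 for gp130 KO over wildtype. Median scaling shifted all ratios of LIFR KO over wildtype by 0.17 and of gp130 KO over LIFR KO by -0.15. Among all genes, 61.8% of calls for LIFR KO over wildtype were higher, against 71.7% with quantile normalisation, 78.6% with median scaling, 97.2% with normexp and 38.9% with no filter. For gp130 KO over wildtype the share was 55.5%, against 23.3% and 21.4% with the normexp settings. For gp130 KO over LIFR KO it was 38.7%, against 25.5% with median scaling, 1.43% with normexp and 63.3% with no filter.

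Counts of all genes that moved by more than 1.5 times were, for LIFR KO over wildtype, 381 higher and 236 lower against 3302 and 94 with normexp, 112 and 65 with it fitted without raised background, 649 and 1018 with no filter, 253 higher with both arrays above background and 147 lower with median scaling. For gp130 KO over wildtype, 146 and 117 became 10 and 33, 9 and 33, 653 and 594, and 78 and 66 with both arrays above background. For gp130 KO over LIFR KO, 191 and 303 became 47 and 3246, 37 and 77, 969 and 563, and 124 and 184. The causes were not tested. Dim signals limit Il6 and Lifr.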
